A study of Mus musculus with 2 samples.

Results

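The genes described here are the Notch ligands *Dll1*, *Dll3*, *Dll4*, *Jag1* and *Jag2*, the Notch receptors *Notch1*, *Notch2* and *Notch3*, and the fringe genes *Mfng* and *Lfng*, in single cells of the embryonic mouse eye. They were picked by gene symbol and are 10 of the 31053 genes listed in each of the 2 count tables. The rule used symbols and no expression value, although earlier results of these data were known when the genes were listed.

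Eyecups at E13.5 were dissociated with papain and profiled by droplet single-cell RNA-seq, 1 library from a control embryo and 1 library from a Six3 and Six6 double knockout (DKO) embryo. Six3 and Six6 are related homeodomain transcription factors of the eye field and the early retina. The control embryo was Six3+/-;Six6+/- and carried no Cre, so it too had 1 inactive allele of each gene. The DKO embryo was Six3F/F;Six6-/-;a-Cre. Its *Six6* was inactive in every cell, whereas *Six3* was floxed and a-Cre acts in the peripheral but not the central retina, so the DKO cells are a mixture of cells with and without *Six3*. Both embryos are single animals, the DKO embryo was picked for GFP-positive rosettes in its eyes, and the eyecups held pigment epithelium, lens and blood besides the neural retina. Because each genotype had 1 library, no difference between genotypes could be tested, and every interval given below in parentheses is a 95% interval for counting error alone.

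Notch signalling passes between touching cells: a Delta or Jagged ligand on a sender cell binds a Notch receptor on its neighbour, the receptor is cleaved, and its intracellular part moves to the nucleus, where it joins RBPJ and switches on genes of the Hes and Hey families. Delta-like ligands are turned on by proneural factors in retinal progenitors that are about to become neurons, and the signal holds the neighbours back as progenitors, a process called lateral inhibition. Fringe enzymes add sugars to the Notch receptor and shift its response between Delta and Jagged ligands, while *Dll3* is an unusual ligand that acts mainly inside the cell that makes it.

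Promoter windows are shown for the 3 Delta-like genes and for the target gene *Hes5*, since the letters searched for differed between them. Each window is 300 bases, 250 before and 50 from the RefSeq transcript start on, on build GRCm38.p6 and in the direction of transcription. A window was found in RefSeq for 9 of the 10 genes, the exception being *Mfng*. Searched on both strands were CAGCTG and CAGATG, E-box sequences of the kind bound by proneural factors, and GTGGGAA, the core bound by RBPJ, and capitals mark the matches.
Dll1 (chr17:15376883-15377182, minus strand): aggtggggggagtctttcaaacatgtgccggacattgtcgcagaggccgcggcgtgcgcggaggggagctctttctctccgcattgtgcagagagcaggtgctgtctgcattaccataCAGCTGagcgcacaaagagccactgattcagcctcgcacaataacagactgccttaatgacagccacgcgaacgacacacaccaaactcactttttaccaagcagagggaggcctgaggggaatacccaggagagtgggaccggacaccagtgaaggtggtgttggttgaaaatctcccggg
Dll3 (chr7:28301736-28302035, minus strand): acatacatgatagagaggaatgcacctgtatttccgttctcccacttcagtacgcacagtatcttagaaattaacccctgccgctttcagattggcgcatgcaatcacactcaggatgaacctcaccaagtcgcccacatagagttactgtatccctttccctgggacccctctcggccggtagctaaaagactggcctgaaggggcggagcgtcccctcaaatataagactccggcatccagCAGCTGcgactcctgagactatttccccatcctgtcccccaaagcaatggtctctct
Dll4 (chr2:119325534-119325833, plus strand): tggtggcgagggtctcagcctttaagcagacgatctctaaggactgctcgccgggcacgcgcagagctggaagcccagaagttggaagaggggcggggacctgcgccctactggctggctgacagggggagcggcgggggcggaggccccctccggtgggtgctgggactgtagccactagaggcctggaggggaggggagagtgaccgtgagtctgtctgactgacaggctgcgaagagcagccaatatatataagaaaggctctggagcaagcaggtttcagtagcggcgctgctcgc
Hes5 (chr4:154960673-154960972, plus strand): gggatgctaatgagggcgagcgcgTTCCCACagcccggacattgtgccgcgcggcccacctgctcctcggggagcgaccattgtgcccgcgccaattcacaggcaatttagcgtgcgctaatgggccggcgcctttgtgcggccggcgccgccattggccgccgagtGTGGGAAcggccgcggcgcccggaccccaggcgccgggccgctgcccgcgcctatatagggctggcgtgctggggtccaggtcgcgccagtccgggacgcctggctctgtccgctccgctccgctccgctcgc
The *Dll1* window, the more upstream of its 2 windows, held 1 CAGCTG at -132 from the transcript start, and the *Dll3* window held 1 at -7. The other *Dll1* window, at chr17:15375774-15376073 and not shown, held none of the 3 sequences. The *Dll4* window held none of the 3 sequences. The *Hes5* window held GTGGGAA 2 times, at -226 and -83. Among the other windows, *Jag1* held 1 CAGCTG and *Lfng* held 2 together with 1 GTGGGAA. Thus 4 of 9 genes had CAGCTG in at least 1 window, none had CAGATG and 1 had GTGGGAA. Of 32851 promoter windows of this length, 16.3% held CAGCTG, 17.2% CAGATG and 6.38% GTGGGAA. These shares are per window, whereas the counts above are per gene. The matches are letters in a window, and binding was not measured.

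The control table held 10315 cell barcodes with 85589515 UMIs (unique molecular identifiers, 1 per captured transcript) and 12672 barcodes with 85173276 UMIs were in that of the DKO library. After filtering, 9822 and 12146 cells remained with medians of 7620 and 5879 UMIs, and 22 barcodes occurred in both libraries. Clustering without the 10 genes and the rest of the pathway gave 21 clusters, of which 17 were named from marker lists and 4 were not. The classes used most were naïve-like progenitors (clusters 0, 1 and 9, with 3501 control and 3444 DKO cells), neurogenic-like progenitors (clusters 3 and 8, 1390 and 1716 cells), ganglion-like neurons (clusters 5, 6 and 14, 1125 and 2235 cells) and neurons marked by *Eomes* and *Lhx9* (cluster 10, 1 control and 781 DKO cells). All markers of the listed class were above their level in the other cells in each of the named clusters. The ciliary margin list was also up in cluster 0 and in the pigment-epithelium-like cluster, and the neurogenic list in clusters 14, 16 and 18, the latter pair being the amacrine/horizontal-like and photoreceptor-like clusters. *Six6* stood at 246 UMIs per 1000000 UMIs (CPM) over all control cells and 41.7 CPM over all DKO cells. *Six3* stood at 306 CPM in control and 232 CPM in DKO naïve-like cells, but at 732 and 739 CPM in ganglion-like cells. The 3′ tags of *Six3* lie outside its floxed exon, and transcripts that lack this exon could still be counted.

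The Delta-like ligands *Dll1* and *Dll4* were genes of neurogenic-like progenitors, and the receptor *Notch1* was present in naïve-like and neurogenic-like progenitors alike. *Notch2* and *Notch3* were higher in naïve-like, pigment-epithelium-like and lens-like cells than in neurogenic-like and ganglion-like cells. *Jag1* belonged to lens-like and pigment-epithelium-like cells besides progenitors. Since the ciliary margin list was also up in the pigment-epithelium-like cluster, its levels cannot be assigned to pigment epithelium alone. *Jag2* was higher in ganglion-like cells than in progenitors. Between genotypes, *Dll1* and *Mfng* were higher in DKO naïve-like cells, for *Mfng* not when the libraries were merged without integration (-0.03 on the log2 scale). *Notch1* and *Mfng* were lower in DKO ganglion-like cells. In the 269 of these cells that lay in subclusters called Six3-low, described below, both were 0.89 above the control. Of these 269 cells 236 lay in cluster 5, and the control levels of cluster 5 alone lay inside the intervals of the Six3-low cells. Those cells also had more *Atoh7* than the control, and the part of this was not tested. All levels are UMIs of a gene per 1000000 UMIs of the same cells, and levels of different genes are not compared, since a 3′ count depends on how well each 3′ end is captured.

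*Dll1*, a Delta-like ligand of lateral inhibition (Ensembl ENSMUSG00000014773, chr17:15367354-15376872, minus strand, GRCm38), had its highest class level in neurogenic-like cells, at 107 CPM (101 to 113) in the control and 104 CPM (98 to 111) in the DKO library. The amacrine/horizontal-like cells followed in the control library with 40.9 CPM (27.6 to 58.4) and the photoreceptor-like cells with 31 CPM (16.9 to 52), and these 2 intervals overlap. Ganglion-like cells had 13.9 CPM (11.5 to 16.7) and naïve-like cells 9.84 CPM (8.83 to 10.9) in the control library, against 11.2 and 18.7 CPM in the DKO library, so the order of the 2 classes was not the same in both. The Eomes/Lhx9 neurons of the DKO library had 35.6 CPM (29.8 to 42.2). Lens-like cells were lowest among the ocular classes, with 1.46 and 0.94 CPM. Of all control *Dll1* UMIs, 64.5% lay in neurogenic-like cells, which were 14.2% of the cells, and in the DKO library 47.3%.

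*Dll4*, a Delta-like ligand best known from blood vessels (ENSMUSG00000027314, chr2:119325784-119335962, plus strand), was the member most restricted to neurogenic-like cells, which held 82% of its control and 74.6% of its DKO UMIs. Its level there was 57.1 CPM (52.6 to 62) in the control and 52.6 CPM (48 to 57.5) in the DKO library, against 0.964 and 0.927 CPM in naïve-like cells. Photoreceptor-like cells had 33.2 CPM (18.6 to 54.7) in the control and 58.6 CPM (37.6 to 87.3) in the DKO library, and both intervals overlap those of neurogenic-like cells. Eomes/Lhx9 neurons were at 0.81 CPM (3 UMIs).

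*Dll3*, the ligand that acts inside the cell (ENSMUSG00000003436, chr7:28293553-28302238, minus strand), had another order. It was highest in photoreceptor-like cells, at 75.2 CPM (52.1 to 105) in the control and 112 CPM (82.3 to 149.9) in the DKO library, and in Eomes/Lhx9 neurons at 95.8 CPM (86.1 to 106), which overlap. Neurogenic-like cells had 29.7 CPM (26.4 to 33.3) and 45.4 CPM (41.2 to 50), ganglion-like cells 17.7 and 12.6 CPM and naïve-like cells 1.5 and 2.22 CPM. In the DKO library 36.1% of the *Dll3* UMIs lay in neurogenic-like cells and 30.9% in Eomes/Lhx9 neurons, a class with 1 control cell, whereas 52.3% of the control UMIs lay in neurogenic-like cells.

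*Jag1*, a Jagged ligand with a known part in lens and ciliary body development (ENSMUSG00000027276, chr2:137081456-137116644, minus strand), was highest in control lens-like cells, at 91.8 CPM (82.8 to 102). Neurogenic-like cells followed with 35.7 CPM (32.1 to 39.6), pigment-epithelium-like cells with 29.3 CPM (25.6 to 33.4) and naïve-like cells with 16.9 CPM (15.5 to 18.3). The neurogenic-like and pigment-epithelium-like intervals overlap. Ganglion-like cells had 7.8 CPM.

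*Jag2*, the other Jagged ligand (ENSMUSG00000002799, chr12:112907819-112929776, minus strand), was higher in ganglion-like cells and Eomes/Lhx9 neurons than in both progenitor classes. Ganglion-like cells had 17 CPM (14.3 to 20.1) in the control and 15.8 CPM (13.8 to 18) in the DKO library, and Eomes/Lhx9 neurons 16.7 CPM (12.8 to 21.5), 3 values whose intervals overlap. Photoreceptor-like cells had 13.3 and 19.5 CPM and amacrine/horizontal-like cells 10.9 and 18.2 CPM, from few UMIs. Their intervals overlap those of ganglion-like cells too. Naïve-like and neurogenic-like control cells stood at 2.67 and 2.66 CPM. Ganglion-like cells held 43.8% of the control and 44.2% of the DKO UMIs, and naïve-like cells 29% and 14.5%.

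*Notch1*, the main receptor of retinal progenitors (ENSMUSG00000026923, chr2:26457903-26516663, minus strand), was highest in neurogenic-like cells, at 256 CPM (246 to 266) in the control and 216 CPM (206 to 225) in the DKO library. Amacrine/horizontal-like cells had 188 CPM (158 to 222) and photoreceptor-like cells 155 CPM (121 to 196) in the control library, and these overlap. Naïve-like cells had 99.1 CPM (95.9 to 102) and 112 CPM (108 to 116), pigment-epithelium-like cells 50.9 and 51.6 CPM, and ganglion-like cells only 15.5 and 7.66 CPM. Since naïve-like cells were so many, they still held 48.3% of the control *Notch1* UMIs, against 35.8% in neurogenic-like cells.

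*Notch3*, a receptor known from vascular and progenitor cells (ENSMUSG00000038146, chr17:32120820-32166852, minus strand), had the opposite order in the progenitors. Naïve-like cells had 21.9 CPM (20.4 to 23.5) and 22 CPM (20.4 to 23.7), pigment-epithelium-like cells 23.1 and 22.2 CPM and lens-like cells 18 and 20 CPM, whereas neurogenic-like cells had 4.64 and 4.61 CPM and ganglion-like cells 0.24 and 0.274 CPM (2 and 4 UMIs). *Notch2* (ENSMUSG00000027878, chr3:98013527-98150361, plus strand) was at or below 14.7 CPM in every class and followed the same order, with 7.26 and 8.17 CPM in naïve-like, 2.76 and 1.76 CPM in neurogenic-like and 1 UMI per library in ganglion-like cells. Lens-like cells had 9.23 and 14.7 CPM of it. Macrophage-like cells had 13.3 CPM (3.61 to 34) and 11.1 CPM (4.81 to 22), from 4 and 8 UMIs. Photoreceptor-like cells had 11.1 CPM (3.59 to 25.8, 5 UMIs) in the control and 0 UMIs in the DKO library. Naïve-like cells held 69.2% of the control *Notch3* and 60.5% of the control *Notch2* UMIs.

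The fringe genes had different orders. *Mfng* (manic fringe, ENSMUSG00000018169, chr15:78755882-78773475, minus strand) had 151 CPM (143 to 159) and 165 CPM (157 to 173) in neurogenic-like cells, 67.6 CPM (62.2 to 73.5) and 38.4 CPM (35.3 to 41.8) in ganglion-like cells, 73.4 CPM in Eomes/Lhx9 neurons and 7.6 and 12.7 CPM in naïve-like cells. *Lfng* (lunatic fringe, ENSMUSG00000029570, chr5:140607320-140615545, plus strand) was near 10 CPM in both progenitor classes, at 9.59 and 10.9 CPM in naïve-like and 13.7 and 8.01 CPM in neurogenic-like cells, and had 5 and 4 UMIs in ganglion-like cells. Its highest class level was 45 CPM (31 to 63.2) in control amacrine/horizontal-like cells. Naïve-like cells, the larger class, held 51.9% of the control *Lfng* UMIs, while neurogenic-like cells held 59.1% of those of *Mfng*.

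**Figure D1:**
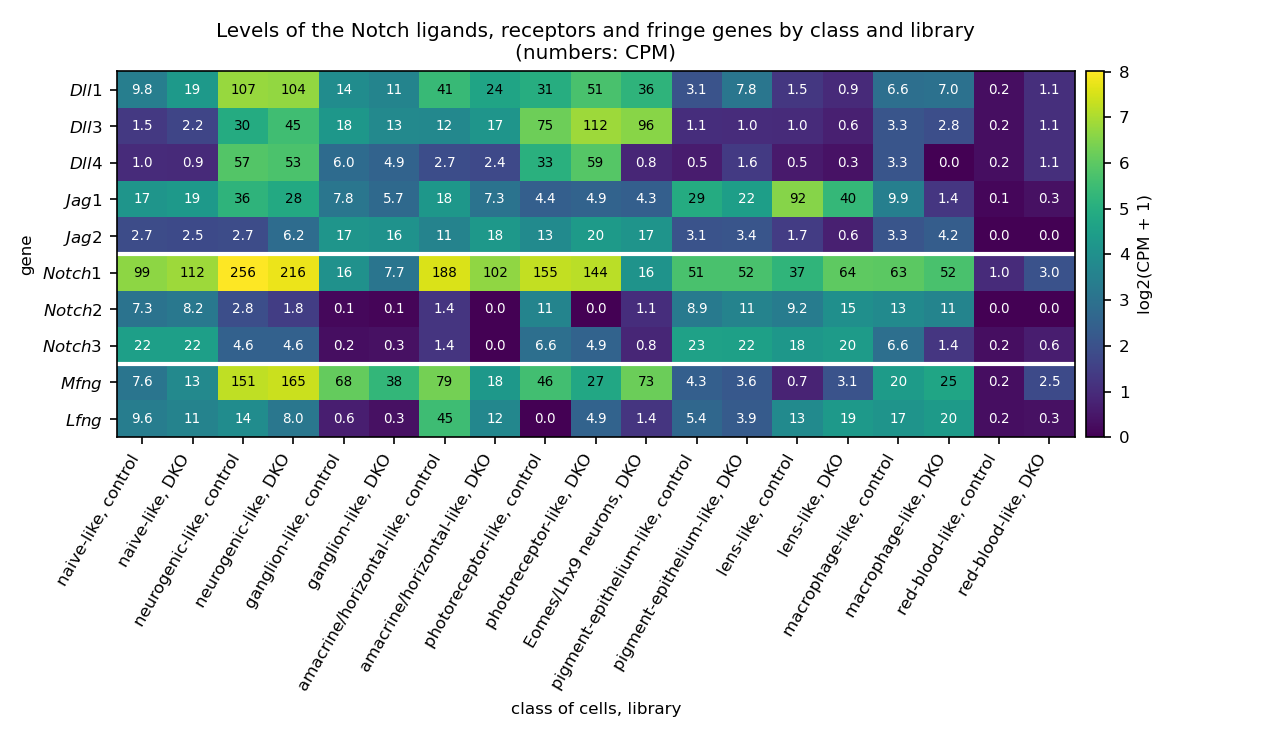
Heat map of the level of each of the 10 Notch genes (rows) in each marker-defined class of the control and the DKO library (columns). Colour gives log2(CPM + 1), the number in each cell gives CPM, white lines part ligands, receptors and fringe genes, and groups under 50 cells are left out. Dll1 and Mfng are brightest in neurogenic-like columns and Dll4 in neurogenic-like and DKO photoreceptor-like ones, Notch3 is darker in neurogenic-like and ganglion-like than in naïve-like columns, and Jag1 is brightest in control lens-like cells (91.8 CPM).

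Red blood cells, which should lack these transcripts, gave the level of free RNA: between 0 and 3.03 CPM for the 10 genes in red-blood-like cells of either library. The rule of at least 10 CPM was met by *Notch1* in 18 of 21 groups of class and library, by *Mfng* in 14, by *Dll1* in 12, by *Jag1* in 11, by *Dll3* in 9, by *Lfng* in 8, by *Jag2* and *Notch3* in 7 each, by *Notch2* in 5 and by *Dll4* in 4. All 10 had UMIs in both libraries. Per cell, after thinning each cell to 2000 UMIs at random, *Dll1* was seen in 17.9% (15.9% to 20%) of control neurogenic-like and 1.85% (1.42% to 2.35%) of control naïve-like cells, *Dll4* in 10.3% and 0.115%, and *Notch1* in 38.7% and 18%. In thinned red-blood-like control cells *Dll1* and *Dll4* were seen in 0 of 1061 cells, which allows a share of up to 0.283%, and *Notch1* in 0.0943%. The *Dll4* share in naïve-like cells lies below that limit, so the thinned cells cannot tell it from background. Its summed control level was 0.964 CPM (0.668 to 1.35) in naïve-like and 0.223 CPM (0.027 to 0.807) in red-blood-like cells, with overlapping intervals. Medians before thinning were 8453 UMIs in red-blood-like, 6714 in neurogenic-like and 8818 in naïve-like control cells, and without thinning the neurogenic-like shares were 44% for *Dll1*, 21.5% for *Dll4* and 70.4% for *Notch1*.

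Set against naïve-like cells of the same control library, neurogenic-like cells were past 1.5-fold higher for 6 of the 8 genes with at least 10 CPM in either class, and past it lower for 1. Over all genes the shares were 11.9% higher and 14.3% lower. *Dll4* stood at 57.1 against 0.964 CPM, and since its share of naïve-like cells could not be told from background no size is given for its difference. On the log2 scale the differences were 4.31 (4.12 to 4.50) for *Mfng*, 4.30 (3.88 to 4.75) for *Dll3*, 3.44 (3.26 to 3.62) for *Dll1*, 1.37 for *Notch1* and 1.08 for *Jag1*, and -2.24 (-2.69 to -1.81) for *Notch3*. *Lfng* differed by 0.52. In the DKO library the counts were again 6 higher and 1 lower of 8, beside 13.4% and 17.3% of all genes, with *Dll4* at 52.6 against 0.927 CPM and a *Dll3* difference of 4.36, but *Dll1* at 2.48 (2.33 to 2.63) and *Mfng* at 3.70 (3.54 to 3.87). The smaller steps of *Dll1* and *Mfng* went with their higher DKO naïve-like levels.

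From neurogenic-like to ganglion-like cells of the control library, 7 of 8 genes were past 1.5-fold lower and 1, *Jag2*, higher by 2.68 (2.08 to 3.33) on the log2 scale, where 22.0% of all genes were lower and 22.5% higher. *Lfng* stood at 13.7 against 0.6 CPM (0.195 to 1.4, 5 UMIs). The latter overlaps the 0.223 CPM (0.027 to 0.807) of control red-blood-like cells, so no size is given for its difference. *Notch1* was lower by a log2 difference of -4.05 (-4.31 to -3.79), *Dll4* of -3.25 and *Dll1* of -2.94, whereas *Mfng* and *Dll3* had the smallest steps, -1.16 and -0.74. The DKO library had 6 lower and 1 higher of 7, beside 21.2% and 22.5% of all genes. This holds for ganglion-like neurons, since *Dll3* was higher in photoreceptor-like cells and Eomes/Lhx9 neurons than in neurogenic-like cells and *Lfng* was higher in control amacrine/horizontal-like cells.

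Within each broad class the genes were not uniform. The neurogenic-like class joined clusters 8 and 3. In the control library *Dll1* stood at 148 CPM (137 to 159) in cluster 8 and 64.7 CPM (57.9 to 72.2) in cluster 3, a log2 difference of -1.19 for cluster 3 over cluster 8. *Dll4* stood at 87.5 and 25.8 CPM, a difference of -1.76 (-2.05 to -1.47), and *Notch1* at 324 and 185 CPM, a difference of -0.80 (-0.92 to -0.69). *Dll3* and *Mfng* went the other way, from 20.6 to 39.1 CPM (0.92) and from 112 to 191 CPM (0.78). *Jag1* was level at 35.8 and 35.7 CPM. The same 5 genes had the same directions in the DKO library, with differences of -0.97, -1.26, -1.09, 1.03 and 0.80 in the order given.

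Ganglion-like neurons showed a similar split. Cluster 5 had *Dll3* at 30.7 CPM, *Mfng* at 109 CPM and *Notch1* at 21.4 CPM in the control library, whereas cluster 6 had 1.4, 10.9 and 6.98 CPM. *Dll1* was the reverse, with 8.66 CPM in cluster 5 and 20.7 CPM in cluster 6, a log2 difference of 1.25 (0.68 to 1.85), but stood at 10.8 and 11.3 CPM in the DKO library. *Jag2* was 16.5 and 18.4 CPM in the control library, with overlapping intervals. Cluster 14 was shallow, with median UMI counts of 643 and 813 per cell.

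**Figure D2:**
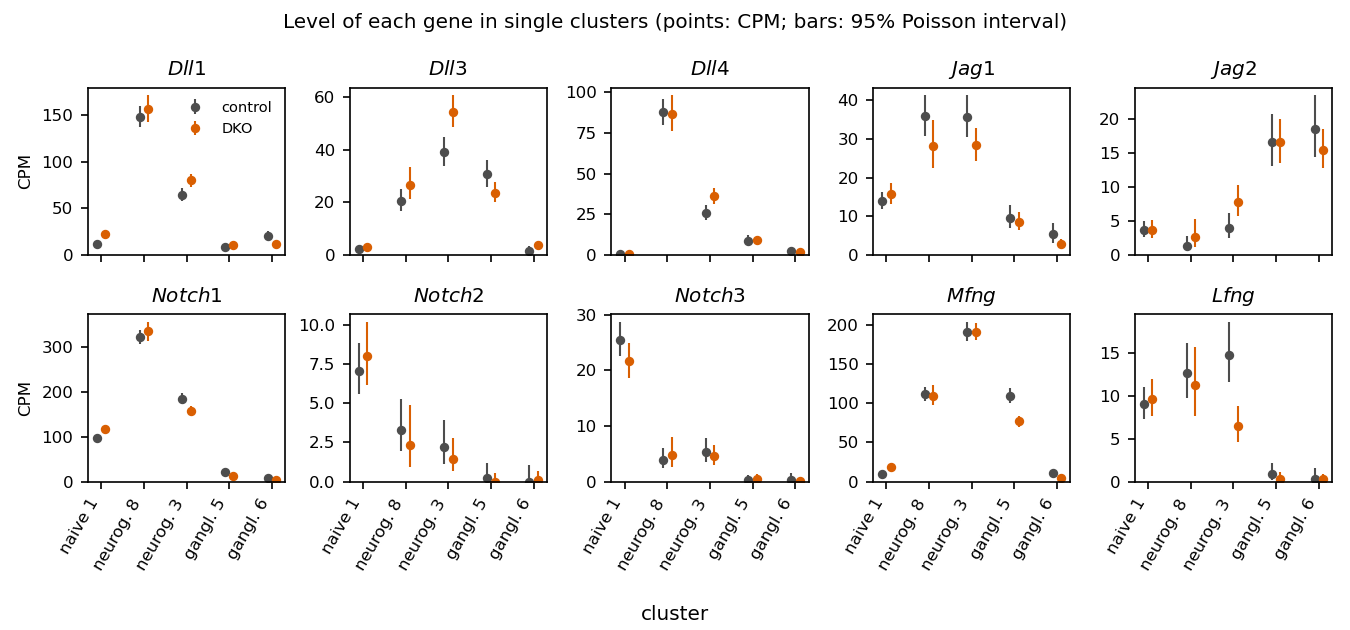
Level (CPM, linear axes that start at 0 and differ between panels) of the 10 Notch genes in naïve-like cluster 1, neurogenic-like clusters 8 and 3 and ganglion-like clusters 5 and 6, for the control (grey) and the DKO library (orange). Points are CPM and bars are exact Poisson 95% intervals. Dll1 and Dll4 are highest in cluster 8, whereas Dll3 and Mfng are higher in cluster 3 than in cluster 8, and Dll1 in cluster 1 is higher in the DKO library (22.3 against 11.4 CPM).

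In naïve-like progenitors, *Dll1* and *Mfng* were higher in the DKO than in the control library, and the receptors were close to level. *Dll1* stood at 9.84 CPM (347 UMIs) in the control and 18.7 CPM (566 UMIs) in the DKO library, a log2 difference of 0.93 (0.73 to 1.13), and *Mfng* at 7.6 and 12.7 CPM, a difference of 0.74 (0.51 to 0.97). *Notch1* differed by 0.18 (0.11 to 0.24), *Jag1* by 0.15, *Lfng* by 0.18 and *Notch3* by 0.01 (-0.14 to 0.16). These 6 genes met the 10 CPM rule, and 2 of them were past 1.5-fold higher and none lower, beside 3.63% of all genes higher and 1.75% lower. The share of thinned naïve-like cells with a *Dll1* UMI was 1.85% in the control and 3.35% (2.77% to 4.01%) in the DKO library, beside 0% and 0.37% of red-blood-like cells. Over 10 other processing settings *Dll1* ranged from 0.80 to 1.08, whereas *Mfng* came to -0.03 when the libraries were merged without integration.

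*Dll1* was higher in each naïve-like cluster, though not by the same amount. Cluster 0 had 9.08 CPM in the control and 13.7 CPM in the DKO library (log2 difference 0.59, 0.31 to 0.88), cluster 1 had 11.4 and 22.3 CPM (0.97, 0.63 to 1.31) and cluster 9 had 9.37 and 32 CPM (1.77, 1.29 to 2.28). The 3 control values overlap, while the DKO values are spread. *Mfng* differed by 0.45, 0.96 and 0.95 in these clusters and met the 10 CPM rule in clusters 1 and 9. The clusters took similar shares of the class in both libraries, 46.3% and 48.4% for cluster 0, 39.8% and 38% for cluster 1, and 13.9% and 13.6% for cluster 9.

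In neurogenic-like progenitors *Dll1* was level, at 107 and 104 CPM and a log2 difference of -0.03 (-0.16 to 0.09), and so was *Dll4* at -0.12 (-0.30 to 0.06). *Dll3* was higher in the DKO library by 0.61 (0.40 to 0.83), though -0.14 (-0.84 to 0.49) in the Six3-low DKO cells described below, and *Lfng* lower, at 13.7 against 8.01 CPM, a difference of -0.78 (-1.20 to -0.36). *Notch1* differed by -0.25 (-0.33 to -0.16), *Jag1* by -0.34 and *Mfng* by 0.13. Of 7 genes with 10 CPM, 1 was past 1.5-fold higher and 1 lower, beside 5.92% and 4.44% of all genes. The class had another makeup in each library: cluster 3 was 57.3% of its control and 74.5% of its DKO cells. Within cluster 8 *Dll1* differed by 0.08, *Dll3* by 0.38 and *Notch1* by 0.05, each within 1.5-fold. Within cluster 3 *Lfng* differed by -1.19 (-1.78 to -0.62), past 1.5-fold. The *Dll3* difference was 0.48 (0.22 to 0.74) within cluster 3. Cluster 3 also had *Dll1* at 0.30 (0.10 to 0.51) and *Dll4* at 0.49 (0.17 to 0.81), both above 0 and within 1.5-fold.

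In ganglion-like neurons the receptor and *Mfng* were lower in the DKO library. *Notch1* stood at 15.5 and 7.66 CPM, a log2 difference of -1.01 (-1.39 to -0.64), and *Mfng* at 67.6 and 38.4 CPM, a difference of -0.82 (-0.99 to -0.64). *Dll3* differed by -0.50, *Dll1* by -0.31 and *Jag2* by -0.11 (-0.42 to 0.20). Over 10 other processing settings *Dll3* ranged from -1.80 to 1.31 and *Dll1* from -0.89 to 0.40, so neither had a stable direction. In the 269 Six3-low DKO cells of this class, defined below, the directions against the whole control class were turned. *Notch1* stood at 28.7 CPM (20.7 to 38.9) and *Mfng* at 125 CPM (108 to 145), both 0.89 above that class. Of these cells 236 lay in cluster 5, which was 53% of the control class. The control levels of both genes in cluster 5 alone lay inside these 2 intervals. For this class the limit called 19 of 27 DKO subclusters Six3-low, against 9 of 27 for naïve-like cells. The proneural gene *Atoh7* stood at 862 CPM in the Six3-low cells, 492 CPM in the control and 193 CPM in the other DKO cells. The part of this in the turned directions was not tested. Over the whole class 2 of 5 genes were past 1.5-fold lower in the DKO library and none higher, beside 2.58% of all genes lower and 5.96% higher. The neurogenic marker list summed to 1002 CPM in control and 632 CPM in DKO ganglion-like cells, and cluster 6, in which *Mfng* and *Notch1* are low in both libraries, was 32.7% of the control and 44.9% of the DKO class. The part of these shifts in the result was not tested, but within cluster 5 *Notch1* still differed by -0.71 (-1.14 to -0.28), while *Mfng* went from 109 to 76.8 CPM (-0.51), which is within 1.5-fold. Within cluster 6 *Mfng* differed by -1.11 and *Dll1*, at 20.7 and 11.3 CPM, by -0.87 (-1.33 to -0.40).

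**Figure D3:**
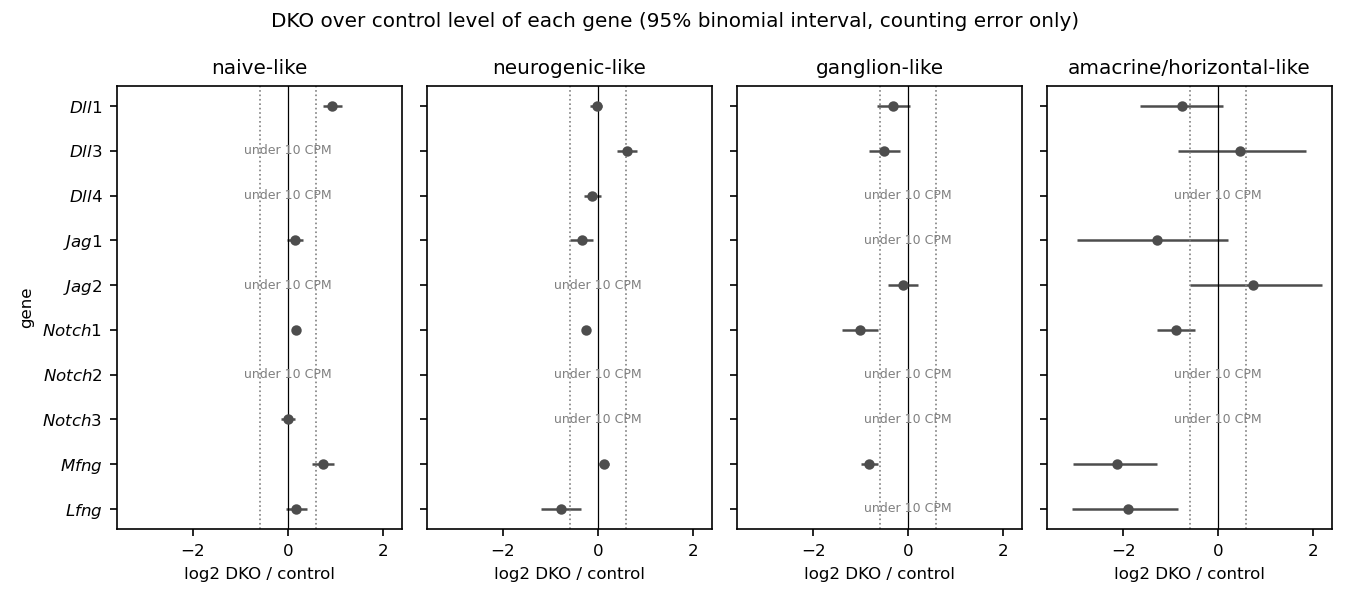
Log2 ratio of the DKO over the control level of each Notch gene in naïve-like, neurogenic-like, ganglion-like and amacrine/horizontal-like cells. Points are ratios, bars are 95% counting intervals, dotted lines mark 1.5-fold, and genes under 10 CPM in both libraries are named without a point. Dll1 and Mfng lie past the upper line in naïve-like cells, Notch1 and Mfng past the lower line in ganglion-like cells, and the amacrine/horizontal-like intervals are the widest.

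The smaller classes gave wider intervals. In amacrine/horizontal-like cells (128 control and 193 DKO cells) 7 genes had 10 CPM. *Mfng* stood at 79.1 CPM (60.1 to 102) in the control and 18.2 CPM (10.2 to 30) in the DKO library, *Lfng* at 45 and 12.1 CPM (5.82 to 22.3) and *Notch1* at 188 and 102 CPM (81.3 to 126). The 4 ligands among them had few UMIs and overlapping intervals, with *Dll1* at 40.9 and 24.3 CPM, *Jag1* at 17.7 and 7.28 CPM, *Dll3* at 12.3 and 17 CPM and *Jag2* at 10.9 and 18.2 CPM. Summed red blood markers were 9062 CPM in the control and 33537 CPM in the DKO cells of this class, and the neurogenic list 1729 and 859 CPM, and the part of either in these differences was not tested. In lens-like cells *Jag1* stood at 91.8 and 39.5 CPM (32.9 to 47), a log2 difference of -1.22 (-1.52 to -0.92), *Notch1* at 36.9 and 64.2 CPM, a difference of 0.80 (0.49 to 1.11), and *Notch2* at 0.67 (0.03 to 1.33). The median lens-like cell had 18236 UMIs in the control and 10124 in the DKO library. Cluster 15, led by crystallin genes, stayed unnamed and is not part of this class. Whether the mix of lens cells differed between the libraries was not tested. In pigment-epithelium-like cells *Jag1* differed by -0.44, and *Notch1* and *Notch3* by 0.02 and -0.06.

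In the main clustering the Eomes/Lhx9 neurons had 1 control cell. Other clusterings put 0 to 604 control cells in this class, the most at resolution 0.3, where the ganglion-like class had 369 control cells. The neurons of cluster 10 were set against the ganglion-like neurons of the same DKO library. There 4 of 5 genes were past 1.5-fold higher and none lower, beside 8.10% of all genes higher and 9.48% lower. The log2 differences were 2.93 (2.67 to 3.19) for *Dll3*, 1.67 (1.33 to 2.01) for *Dll1*, 1.08 (0.60 to 1.54) for *Notch1* and 0.93 (0.72 to 1.14) for *Mfng*, and 0.08 for *Jag2*. The reference joins unlike clusters, and against DKO cluster 5 alone *Mfng* was level, at 73.4 CPM (64.9 to 82.7) and 76.8 CPM (70.2 to 83.9), and *Notch1* stood at 16.2 CPM (12.4 to 20.8) and 13.1 CPM (10.5 to 16.2). *Dll3*, at 95.8 and 23.6 CPM, and *Dll1*, at 35.6 and 10.8 CPM, remained apart. The markers *Eomes*, *Lhx9* and the rest of that list summed to 1766 CPM in this cluster.

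Since Cre acted in only some of the DKO retina, DKO cells were also clustered alone, and for each class a subcluster was called Six3-low when *Six3* over all its cells, of whatever class, lay below 50% of the level in control cells of that class. The cells of the class that such subclusters held can therefore be above this limit. The split was made on *Six3* and is not a record of Cre. Of the naïve-like DKO cells 1214 were Six3-low (35.2%), with *Six3* at 109.7 CPM, against 298 CPM in the 2230 others. *Dll1* stood at 9.84 CPM in control, 16.6 CPM in other DKO and 22.8 CPM in Six3-low cells, and *Mfng* at 7.6, 11 and 15.9 CPM. Against the control the Six3-low difference was 1.21 (0.97 to 1.45) for *Dll1* and 1.07 (0.78 to 1.35) for *Mfng* on the log2 scale, and the other DKO cells differed by 0.75 (0.53 to 0.97) and 0.53 (0.26 to 0.79). Between Six3-low and other DKO cells *Dll1* differed by 0.46 (0.21 to 0.70), and 0 of 6 genes were past 1.5-fold, beside 4.21% of all genes lower and 2.67% higher. *Notch1* followed with 99.1, 104 and 126 CPM.

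Neurogenic-like DKO cells held few Six3-low cells, 155 (9.03%), of which 154 lay in cluster 3. Their *Six3* level, 158 CPM (132 to 188) against 305 CPM in control and 286 CPM in other DKO cells, was not below 50% of the control, so the name stands for their subclusters. The Six3-low cells of the ganglion-like class, at 440.0 against 732 CPM, were above the limit too. *Dll1* stood at 107 CPM in control, 87.5 CPM in other DKO and 277 CPM in Six3-low cells, the last 2 differing by 1.66 (1.44 to 1.88) on the log2 scale. *Dll4* stood at 57.1 and 57.6 CPM in the first 2 groups but at 1.23 CPM in Six3-low cells, where 1 UMI was counted, a difference from the other DKO cells of -5.56 (-10.86 to -3.07). *Lfng* was likewise at 1 UMI in Six3-low cells, against 13.7 CPM in control and 8.68 CPM in other DKO cells, and *Dll3* at 29.7, 47.3 and 27 CPM. *Notch1* (256, 214 and 234 CPM) and *Mfng* (151, 166 and 157 CPM) stayed close to level. Between Six3-low and other DKO cells 2 of 6 genes were past 1.5-fold lower and 1 higher, beside 14.9% and 10.1% of all genes. The identity of these cells also differed: *Atoh7*, the proneural factor of ganglion cells, stood at 3337 CPM in control, 2284 CPM in other DKO and 346 CPM in Six3-low cells. The summed neurogenic markers were 5466, 4263 and 1803 CPM, the naïve markers 1305, 1227 and 1468 CPM and the Eomes/Lhx9 markers 22.1, 274 and 185 CPM. How much of the ligand difference goes with identity was not tested.

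**Figure D4:**
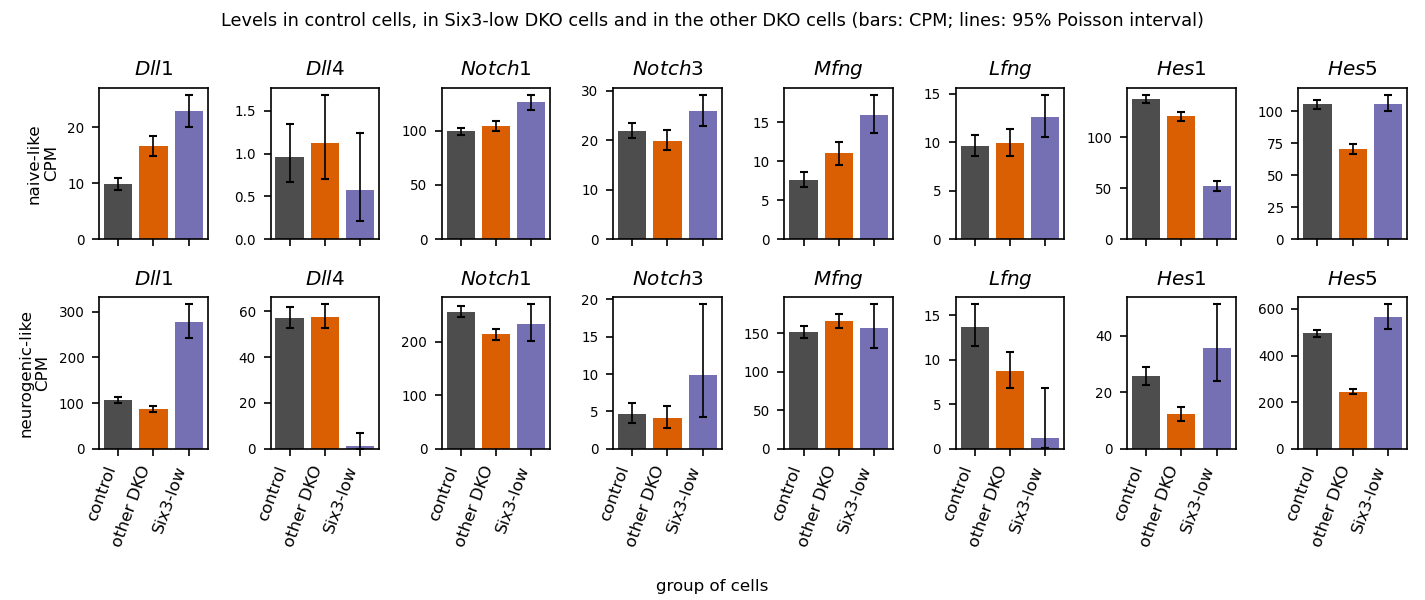
Levels (CPM, linear axes that start at 0 and differ between panels) of 6 Notch genes and the targets Hes1 and Hes5 in control, other DKO and Six3-low DKO cells of the naïve-like (top) and neurogenic-like (bottom) classes. Bars are CPM and lines are exact Poisson 95% intervals. In the neurogenic-like row the Six3-low cells have the highest Dll1 (277 CPM) and the lowest Dll4 (1.23 CPM), and Hes5 is lowest in the other DKO cells (244 CPM).

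The target genes were read as the receiving side, though Notch activity itself was not measured. From naïve-like to neurogenic-like control cells *Hes1* was lower and *Hes5* higher, so the 2 did not give the same reading. Transcripts of *Hes1* and *Hes5*, repressors that hold cells as progenitors, were lower in the DKO library in both progenitor classes. In naïve-like cells *Hes1* stood at 138 and 96.7 CPM (log2 difference -0.51, -0.58 to -0.44) and *Hes5* at 106 and 83 CPM (-0.35, -0.42 to -0.28), both within 1.5-fold. In neurogenic-like cells *Hes1* stood at 25.7 and 14.3 CPM (-0.85), *Hes5* at 495 and 273 CPM (-0.86, -0.93 to -0.79) and *Hey1* at 38.5 and 17.8 CPM (-1.11), all past 1.5-fold lower. *Nrarp*, a feedback inhibitor of Notch, differed by -0.41 in both classes. *Hes6*, which opposes Hes1 and is not read as the receiving side, differed by 0.19 and -0.07. Its control order was opposite to that of *Hes1*, at 90.6 CPM in naïve-like and 751 CPM in neurogenic-like cells. Within cluster 8, where *Dll1*, *Dll4* and *Notch1* were level, *Hes5* went from 559.9 to 265 CPM (-1.08, -1.20 to -0.97). Ganglion-like cells had *Hes6* at 129 and 81.6 CPM (-0.66) and *Hey1* at 24.2 and 11.6 CPM (-1.07).

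The targets did not follow the Six3 split in the same way. In naïve-like cells *Hes1* stood at 138 CPM in control, 121 CPM in other DKO and 52 CPM in Six3-low cells, whereas *Hes5* stood at 106, 70.5 and 106 CPM. In neurogenic-like cells *Hes5* stood at 495, 244 and 565 CPM, *Hes1* at 25.7, 12.2 and 35.5 CPM and *Nrarp* at 26.9, 17.6 and 47.8 CPM. The lower *Hes5* of DKO neurogenic-like cells thus lay outside the Six3-low subclusters, and Six3-low cells, with the high *Dll1*, had more *Hes5* than the control by a log2 difference of 0.19 (0.05 to 0.33).

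Of the 34 other pathway genes, 25 had 10 CPM in naïve-like cells, and 1, *Numbl*, which takes part in receptor turnover, was past 1.5-fold higher in the DKO library, at 9.13 and 13.8 CPM (0.60, 0.38 to 0.81), with none lower, beside 3.63% and 1.75% of all genes. In neurogenic-like cells *Numbl*, at 39.9 and 61.9 CPM (0.63), was the 1 of 27 past 1.5-fold higher, and *Hes1*, *Hes5* and *Hey1* were the 3 lower, beside 5.92% and 4.44% of all genes. In ganglion-like cells *Hes6* and *Hey1* were the 2 of 22 lower, with none higher, beside 2.58% and 5.96% of all genes. The coactivator gene *Maml3* was just inside the limit, at 28.3 and 42.3 CPM (0.58) in naïve-like cells, a value named after it had been seen. Sheddase, gamma-secretase and ubiquitin ligase genes such as *Adam10* (0.02), *Ncstn* (-0.09) and *Mib1* (0.01) were level in naïve-like cells. Between neurogenic-like and naïve-like control cells 9 of 27 were past 1.5-fold higher and 2 lower, beside 11.9% and 14.3% of all genes. Past 4-fold were *Hes6* (3.05), the non-canonical ligand *Dner* (2.74), *Hes5* (2.23) and *Numbl* (2.13), all higher, and *Hes1* (-2.43), lower.

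Ligand and target were also set side by side in single cells, thinned to 2000 UMIs. Of the control cells of cluster 8 with a *Dll4* UMI, 24% (24 of 100; 16% to 33.6%) had a *Hes5* UMI, against 44.2% (39.7% to 48.7%) of those without. The DKO shares were 18.5% (9.92% to 30%) and 32.2% (27.4% to 37.3%), and here the intervals overlap. Cells with a *Dll1* UMI did not have less *Hes5* in this cluster, with 43.6% (35.5% to 52%) against 39.8% (35.2% to 44.5%) in the control library. In DKO cluster 3, *Hes5* was seen in 43.6% (35.2% to 52.2%) of cells with *Dll1* and 17.4% (15.2% to 19.8%) of cells without. Without the Six3-low cells the latter shares were 29.9% (20.5% to 40.6%) and 15.1% (13% to 17.5%). In naïve-like control cells 37.5% (25.7% to 50.5%) of the 64 cells with *Dll1* had *Notch1*, against 17.7% of the rest, so that ligand and receptor were seen in the same cells. Cells of 1 library are not replicates, and these shares are a description.

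**Figure D5:**
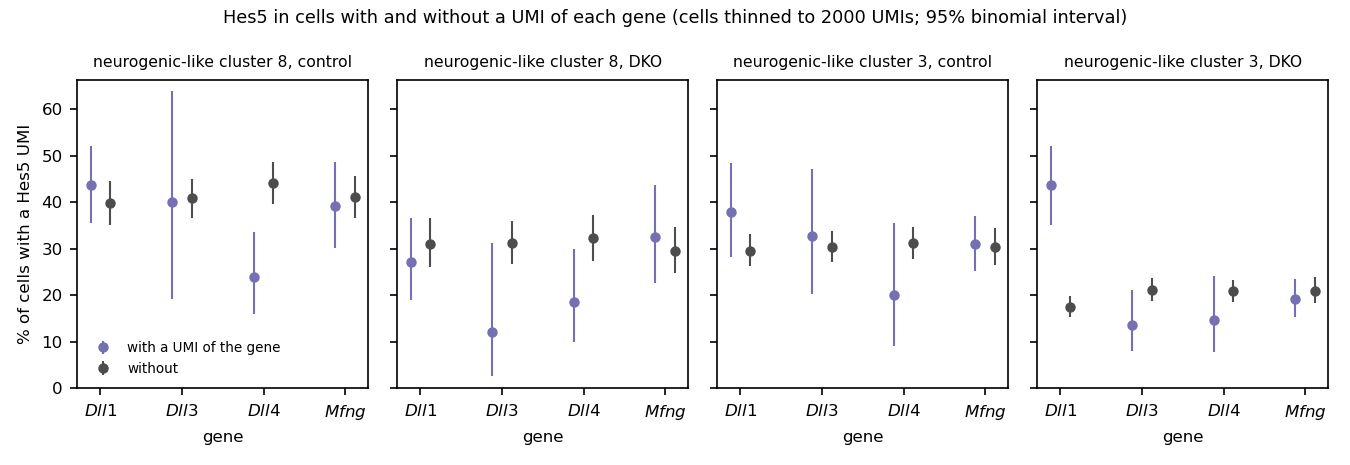
Percent of cells with a Hes5 UMI among cells with (purple) and without (grey) a UMI of Dll1, Dll3, Dll4 or Mfng, in neurogenic-like clusters 8 and 3 of each library, with cells thinned to 2000 UMIs. Points are shares and bars are exact binomial 95% intervals. In control cluster 8 the share is lower with Dll4 (24%) than without (44.2%), and in DKO cluster 3 it is higher with Dll1 (43.6%) than without (17.4%).

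Over 25 pairs of retinal cluster and library, the genes whose log2(CPM + 1) was most correlated with *Dll1* among 5861 genes were *Cdc42ep4* (Pearson r 0.89), *Rbpj* (0.88) and *Mycl* (0.86). For *Notch1* they were *Fubp1* (0.94), *Zfp91* (0.91) and *Sfpq* (0.90), and for *Mfng* they were *Hnrnph3* (0.93), *Rcor2* (0.92) and *Bhlhe22* (0.92). The pairs share libraries and depth, so the coefficients describe these clusters and carry no test.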

How the data were processed

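Single-cell RNA-seq was performed on eyecups of 1 control and 1 DKO embryo with the 10x Genomics 3′ kit. Per the labels, the authors aligned the reads to mm10 with Cell Ranger 3.1.0 and deposited, for each library, whole UMI counts per gene and cell barcode without normalization. A cell was retained when it had over 200 but not 6000 or more detected genes, and when mitochondrial transcripts made up less than 20% of its UMIs. Both libraries were integrated in Seurat 5.3.0 (R 4.3.3) with 20 dimensions of 2000 variable genes, and clusters were drawn at a resolution of 0.5. The 10 Notch genes, 34 other pathway genes, the genes named in the study's results, hemoglobin genes and sex-linked genes were excluded from the clustering features.

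A cluster was given a class name, with the suffix like, when at least 75% and 3 or more of the markers of a class exceeded their level in all other cells. It stayed unnamed when over 50% of its cells were called doublets, when its UMIs were low and no marker was among its 10 leading genes, or when another class led it. The names are rebuilt and need not match those of the study. Scrublet (in scanpy 1.11.5) at a threshold of 0.225 called 300 control (3.05%) and 329 DKO cells (2.71%) doublets, which were kept in the main values. This is the lower of the automatic thresholds of both libraries, the control one being 0.635.

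UMIs were summed over the cells of a class and divided by all UMIs of these cells to give counts per 1000000 UMIs (CPM). Levels carry exact Poisson intervals, log2 ratios carry intervals obtained by treating the split of a gene's UMIs between both groups as binomial, and shares of cells carry Clopper-Pearson intervals, all at 95%. UMIs lessen but do not remove technical noise, and none of the intervals holds variation between animals. A gene was counted as past 1.5-fold when it had at least 10 CPM in either group. No ratio was computed when both groups had 3 UMIs or fewer. With 1 library per genotype no p-value was computed. Depth was 85589515 UMIs in the control and 85173276 UMIs in the DKO library. To compare shares of cells, each cell was thinned to 2000 UMIs and shallower cells were left out. The ratio script was tested on simulated counts.

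The genes, gene lists, markers and comparisons were chosen with earlier results of these data known. The genes named are the 10 Notch genes, the targets *Hes1*, *Hes5*, *Hey1* and *Nrarp*, and *Hes6*. Named too are the other pathway genes past 1.5-fold between genotypes or past 4-fold between neurogenic-like and naïve-like control cells, and the 3 genes most correlated with *Dll1*, *Notch1* and *Mfng*. *Atoh7*, *Maml3*, *Adam10*, *Ncstn* and *Mib1* were added once their values were known. Gene coordinates are from GENCODE M21 on GRCm38. In that annotation no other gene of the count tables overlaps any of the 10 genes on the same strand, and 10x 3′ counting uses strand. Values were computed with scipy 1.17.1, pandas 2.3.3 and numpy 2.4.6 in Python 3.11.15 and drawn with matplotlib 3.10.9. The alternatives were other clustering resolutions, all genes as features, no integration, another linear algebra kernel, doublets left out, a stricter cell filter, other scales, thinned cells, other size and level rules, and Six3-low DKO cells alone.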

Additional observations from a re-analysis of the deposited data

Results flagged for a closer look

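The DKO over control difference of *Notch1* had opposite directions in different classes. On the log2 scale it was 0.80 in lens-like cells, -1.01 in ganglion-like cells and -0.88 in amacrine/horizontal-like cells. The difference of *Mfng* was 0.74 in naïve-like cells, -0.82 in ganglion-like cells and -2.12 in amacrine/horizontal-like cells. Both were singled out because a class past 1.5-fold higher stood beside classes past 1.5-fold lower. With 1 library per genotype the difference between classes was not tested.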

How the results depend on the processing

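No paired analysis was possible because there was 1 library for each genotype, which also left no replicate to leave out. Values below are log2 differences of DKO over control, or counts of the 10 genes past 1.5-fold, unless stated. The share of all genes past 1.5-fold was not computed for these settings, so the counts are not a result about the 10 genes.

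With the libraries merged without integration, *Notch1* in naïve-like cells came to 0.04 and *Dll1* in neurogenic-like cells to 0.17, the counts to 1 (naïve-like) and 0 (neurogenic-like), the *Dll1* difference between neurogenic-like and naïve-like control cells to 3.71, and *Mfng* in naïve-like cells turned to -0.03. Resolution 1 gave 1 gene in neurogenic-like cells. *Notch1* in naïve-like cells was 0.26 as a mean over cells and 0.25 after thinning. Without the level rule 4 genes were past 1.5-fold in neurogenic-like cells, and a 2-fold rule left 0, 0 and 1 in naïve-like, neurogenic-like and ganglion-like cells.

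With Six3-low DKO cells alone, *Notch1* in naïve-like cells was 0.35 and *Dll1* in neurogenic-like cells 1.37. Of 7 genes with 10 CPM in neurogenic-like cells, 3 were past 1.5-fold lower and 1 higher, and 4 genes were past it in ganglion-like cells. There *Dll3* in neurogenic-like cells turned to -0.14, and *Notch1* and *Mfng* in ganglion-like cells both turned to 0.89, over 269 cells of which 236 lay in cluster 5. The cause was not tested in any of these.

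Alternatives added after seeing the data were single clusters and the DKO cells outside the Six3-low subclusters. In the latter *Notch1* in naïve-like cells was 0.07, *Dll1* in neurogenic-like cells -0.29, and 1 gene was past 1.5-fold in naïve-like cells. Cluster 0 alone gave 1 gene, cluster 1 alone *Notch1* at 0.27, cluster 8 alone 0 genes and 3.91 for *Dll1* over naïve-like cells, cluster 3 alone 0.30 for *Dll1*, 1 gene and 2.72 over naïve-like cells, and cluster 5 alone 1 gene.

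*Dll1* in naïve-like cells stayed between 0.80 and 1.08 and *Notch1* in ganglion-like cells between -1.20 and -0.86 over 10 processing settings, whereas *Dll3* in ganglion-like cells ranged from -1.80 to 1.31. In ganglion-like cells *Notch2*, *Notch3* and *Lfng* had 1 to 5 UMIs per library, too few to compare the genotypes.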
